A study of Mus musculus with 72 samples.

Results

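The 10 genes of the perineuronal net and of the chondroitin sulfate proteoglycan matrix of the brain described here are the lecticans Acan, Bcan, Ncan and Vcan, the link proteins Hapln1, Hapln2 and Hapln4, the tenascins Tnr and Tnc, and the sulfotransferase Ust. The members were taken by gene symbol, and 10 of 10 symbols each matched 1 of the 55401 gene IDs in the count matrix. All 10 passed the filter on low counts in each window, where Acan (17 to 139 reads in the day 14 libraries) and Hapln2 (7 to 77 reads) were the shallowest.

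RNA of the right brain hemisphere (the design text says cortex) was sequenced from 72 C57Bl/6 mouse pups (C57Bl/6NTac in the methods of the study) in 3 exposure windows, each with morphine and saline arms and both sexes. PND1 pups came from dams whose osmotic minipump released 10 mg/kg/day morphine or saline and were collected on day 1, 6 h after they were found (4 female and 6 male morphine pups, 7 female and 7 male saline pups). PND14 pups were injected after birth 2 times a day with 10 mg/kg morphine or with saline and were killed 6 h after the last injection on day 14 (6 female and 6 male morphine pups, 6 female and 6 male saline pups; the design text gives day 15). 3-Tri pups had both exposures, from the pump before birth and the injections after it, and were killed at the same age (6 per sex and drug). The windows differ in age, route and handling, which cannot be told apart. Litters of the dams with pumps were moved to surrogate dams, and no source used here gives which pups shared a litter. P-values therefore measure the spread between pups.

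Libraries held 20742862 to 27333125 counts in PND1, 4407544 to 21404819 in PND14 and 3113919 to 19938980 in 3-Tri. Transcripts of the sex chromosomes went against the gender label in 4 of 24 PND1 libraries (2 morphine, 2 saline), 0 of 24 PND14 libraries and 12 of 24 3-Tri libraries (8 morphine, 4 saline). No library was relabelled, so sexes below are labels, and values without these libraries are given where they change the call of a member. The authors' own tables left out 1 PND14 female morphine library (replicate 4) and 1 3-Tri male saline library (replicate 1), which were kept here. Cartilage also makes Acan, Hapln1 and Tnc, and of 9 genes that mark it 4 (Matn1, Comp, Ucma and Matn3) had a median below 1 CPM (counts scaled to a common library size) at both ages and 5 a median above it. Of these 5, Col9a3 had a median of 44.6 CPM at day 14 and 42.5 CPM at PND1, Col9a2 15.9 and 31.2 CPM, Col2a1 1.68 and 15.7 CPM, Col9a1 3.18 and 3.40 CPM, and Cnmd 2.31 and 1.58 CPM. Their part in the levels of Acan, Hapln1 and Tnc was not tested.

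Perineuronal nets are lattices of extracellular matrix that close around the cell body and proximal dendrites of certain neurons, above all the fast-spiking parvalbumin interneurons, as postnatal critical periods end. In them a hyaluronan backbone carries lecticans, proteoglycans with chondroitin sulfate chains; link proteins clamp lecticans to hyaluronan, and tenascin-R ties the lecticans to each other. The immature brain has a looser matrix rich in versican, neurocan and tenascin-C, and the sulfation of the sugar chains changes as the mature matrix is laid down.

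Read per kilobase of exon, so that genes of unlike length can be set side by side, brevican and neurocan led the family at day 14. Over the 48 day 14 libraries Bcan averaged 83.2 ± 4.02 and Ncan 81.0 ± 6.59 CPM per kb (SD), followed by Tnr (18.1), Ust (12.6), Hapln1 (12.3), Hapln4 (6.00), Vcan (3.55), Tnc (3.34), Hapln2 (1.12) and Acan (0.821). The spans of mean ± SD overlapped between Bcan and Ncan, Ust and Hapln1, Vcan and Tnc, and Hapln2 and Acan. Over the 24 PND1 libraries the order of levels per kb was Ncan (72), Bcan (41.0), Tnc (22.8), Vcan (13.6), Tnr (5.24), Ust (3.30), Hapln4 (0.753), Hapln1 (0.551), Hapln2 (0.313) and Acan (0.258), where the spans of the last 4 genes overlapped from each to the next. Behind Bcan and Ncan came Tnr, Ust and Hapln1 at day 14 and Tnc and Vcan at PND1.

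Between the saline pups of the 2 ages, the net and proteoglycan genes changed in both directions. At PND14 8 members were higher than at PND1 (Acan, Bcan, Ncan, Hapln1, Hapln2, Hapln4, Tnr and Ust) and 2 were lower (Vcan and Tnc) in edgeR's quasi-likelihood test with Benjamini-Hochberg adjustment over 22010 genes. In this comparison most genes moved: 41.7% of all genes were called higher and 43.2% lower. The median log2 fold change (log2FC) of the members was 1.62 and their median size 1.91, against -0.02 and 0.584 for all genes tested. Hapln1 was 40th from the highest log2FC of 22010 genes and Hapln4 249th, while Tnc was 258th from the lowest. In 7 members every PND14 saline library lay above every PND1 saline library, as for 24.8% of all genes, and in Vcan and Tnc every one lay below, as for 23.9%. In bulk tissue more cells of a type and more RNA per cell cannot be told apart.

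**Figure D1:**
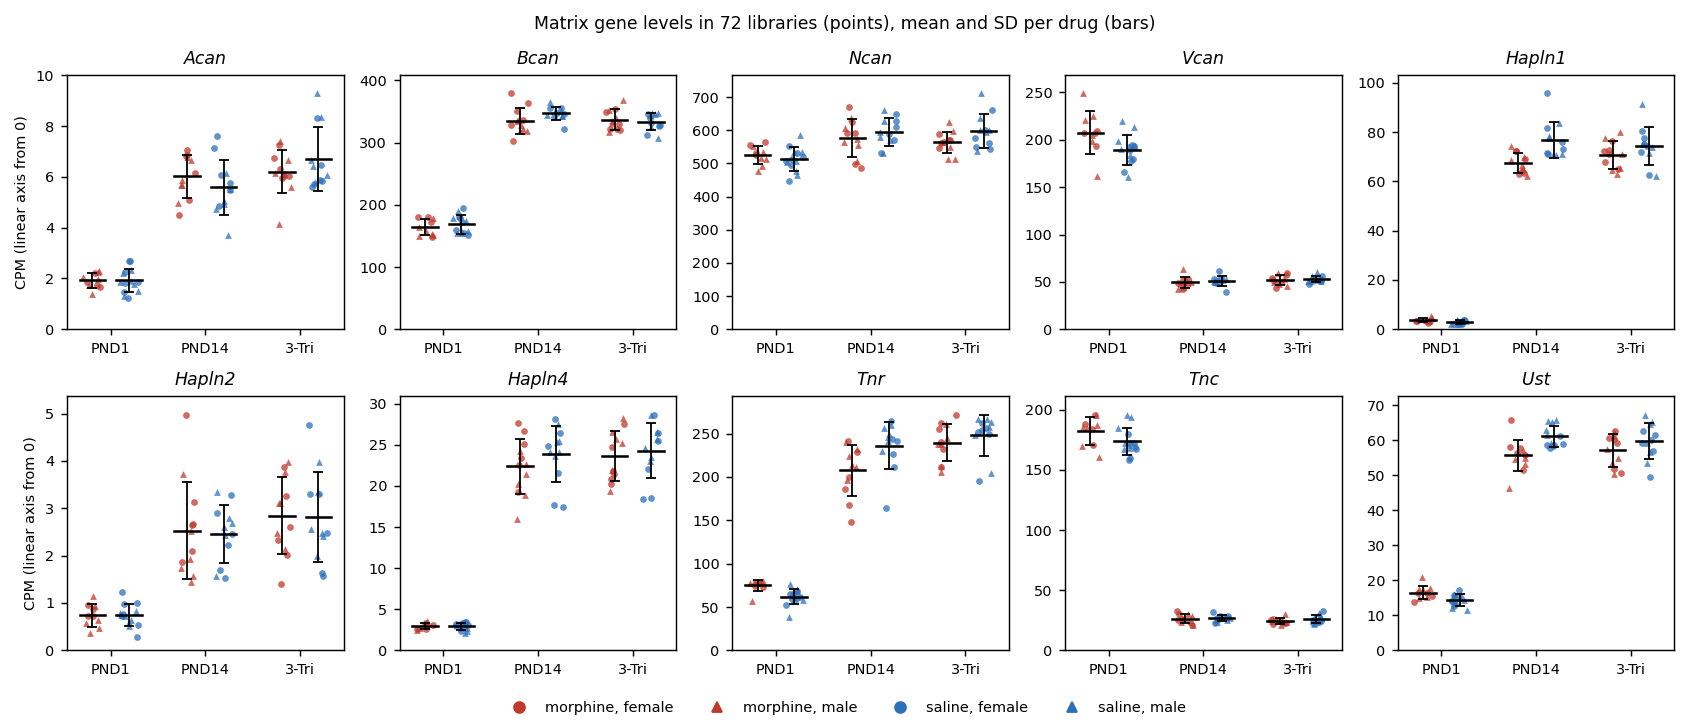
CPM of the 10 genes (linear axes from 0) in each of the 72 libraries, by exposure window, with morphine (red) left of saline (blue), circles for female and triangles for male labels, and bars for the mean and SD. Hapln1 lay between 62.0 and 95.7 CPM in the day 14 libraries, against 1.95 to 5.31 CPM at PND1, and Tnc between 21.0 and 33.1 CPM, against 158 to 196 CPM.

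Among the lecticans, aggrecan, the proteoglycan most tightly tied to nets, was scarce at both ages. Acan (chr7:79053483-79115099, plus strand, mm10) had 3.73, 5.50 and 7.63 CPM as lowest, median and highest of the 12 PND14 saline libraries, against 1.25, 1.86 and 2.70 CPM in the 14 PND1 saline libraries. The 2 ranges did not overlap, and the log2FC was 1.53 (SE 0.099, edgeR adjusted p = 2.54e-23), a 2.88-fold difference. Bcan, the short brain lectican made by astrocytes and neurons (chr3:87987531-88000230, minus strand), had 321, 347 and 365 CPM at PND14, against 151, 166 and 195 CPM at PND1, 2.06-fold (log2FC 1.04, SE 0.0349, edgeR adjusted p = 9.02e-40). It too did not overlap between the ages.

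Neurocan, the lectican of the developing nervous system, changed least. Ncan (chr8:70093085-70120873, minus strand) had 530, 591 and 662 CPM at PND14, against 446, 510 and 586 CPM at PND1, and it was the 1 member whose ranges overlapped. Its log2FC of 0.22 (SE 0.0422) passed the test (edgeR adjusted p = 3.92e-06) at 1.16-fold. Versican, which is broadly expressed in embryonic tissue and in oligodendrocyte precursors, fell: Vcan (chr13:89655312-89742509, minus strand) had 39.5, 50.8 and 61.7 CPM at PND14, against 161, 191 and 220 CPM at PND1. The PND14 libraries all lay below the PND1 libraries, 3.71-fold lower (log2FC -1.89, SE 0.0549, edgeR adjusted p = 1.56e-43).

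The 3 link protein genes were all higher at PND14. Hapln1, the link protein that mice need for normal nets (chr13:89539796-89611652, plus strand), had 70.7, 74.6 and 95.7 CPM at PND14, against 1.95, 2.95 and 3.86 CPM at PND1. The lowest PND14 library was thus far above the highest PND1 library, and the fold was 26.2 (log2FC 4.71, SE 0.0744, edgeR adjusted p = 6.37e-60). Hapln4, a link protein of brainstem and cerebellar nets (chr8:70083457-70090862, plus strand), had 17.4, 24.5 and 28.1 CPM at PND14, against 2.11, 2.94 and 3.45 CPM at PND1, 8.16-fold (log2FC 3.03, SE 0.0805, edgeR adjusted p = 6.62e-46). Hapln2, which oligodendrocytes lay down at nodes of Ranvier (chr3:88021750-88027583, minus strand), had 1.53, 2.53 and 3.34 CPM at PND14, against 0.277, 0.737 and 1.24 CPM at PND1, 3.29-fold (log2FC 1.72, SE 0.184, edgeR adjusted p = 1.81e-13). Both were apart at the 2 ages in every saline library.

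Each link protein gene lies beside a lectican gene with 0 protein-coding genes between them. Bcan and Hapln2 are 21519 bp apart, Ncan and Hapln4 2222 bp, and Vcan and Hapln1 43659 bp. The neighbours did not share a size or always a direction of change: Vcan was lower at PND14 and Hapln1 higher, and Ncan differed 1.16-fold where Hapln4 differed 8.16-fold.

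The tenascins, large matrix glycoproteins, moved in opposite directions. Tnr, tenascin-R, the net cross-linker (chr1:159523769-159931729, plus strand), had 164, 243 and 264 CPM at PND14, against 39.0, 62.3 and 77.0 CPM at PND1, 3.80-fold (log2FC 1.93, SE 0.0679, edgeR adjusted p = 2.31e-38). Tnc, tenascin-C, which radial glia and immature astrocytes secrete (chr4:63959785-64047015, minus strand), had 22.5, 26.7 and 31.9 CPM at PND14, against 158, 171 and 196 CPM at PND1, 6.52-fold lower (log2FC -2.70, SE 0.0544, edgeR adjusted p = 1.99e-53). No library of either age overlapped the other. Exons of Tnr share 443 bp with the antisense gene Gm38039 and those of Tnc 176 bp with 8030451A03Rik, and no source used here says whether counting used strand. Reads of these stretches cannot be told apart.

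The 2 members that fell with age, Vcan and Tnc, are shown by the 250 bases before their RefSeq start (GRCm38.p6; chr13:89742513-89742762 and chr4:64047016-64047265, both minus strand), since they moved together and these windows hold no annotated exon. Capitals mark matches on either strand to the letters of the TATA box, read as TATAAA, of the inverted or upright CCAAT box, and of the GC box, read as GGGCGG, no match overlapping another. Of 32851 RefSeq windows of this length, 12.4% hold TATAAA, 33.8% CCAAT and 32.7% GGGCGG. The Tnc window holds 1 TATAAA and 1 GGGCGG at 44.8% GC, and the Vcan window 1 CCAAT and 2 GGGCGG at 62.4% GC, where the median window has 52.4% GC. RefSeq gives Tnc another start too, whose window (chr4:64046937-64047186) has 79 exon bases and is not shown. The same TATAAA and GGGCGG lie 205 and 246 bases before that start, against 126 and 167 before the start used here.
Tnc: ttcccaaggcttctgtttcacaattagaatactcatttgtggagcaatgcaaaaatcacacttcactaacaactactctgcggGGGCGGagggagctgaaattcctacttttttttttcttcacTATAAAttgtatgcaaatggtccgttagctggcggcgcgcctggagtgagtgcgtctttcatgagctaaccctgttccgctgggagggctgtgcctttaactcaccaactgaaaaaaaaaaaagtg
Vcan: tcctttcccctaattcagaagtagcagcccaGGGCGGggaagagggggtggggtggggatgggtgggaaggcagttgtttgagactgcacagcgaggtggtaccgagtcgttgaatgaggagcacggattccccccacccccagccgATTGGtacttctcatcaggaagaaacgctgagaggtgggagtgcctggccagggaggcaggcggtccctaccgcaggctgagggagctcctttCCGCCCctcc

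Ust adds sulfate to the 2-O position of uronic acids in chondroitin and dermatan sulfate chains (chr10:8204756-8518825, minus strand). It had 57.8, 60.1 and 65.6 CPM in the PND14 saline libraries, against 11.4, 14.3 and 17.3 CPM in the PND1 saline libraries. The gap between the ages exceeded the spread of each, and the fold was 4.26 (log2FC 2.09, SE 0.0485, edgeR adjusted p = 1.39e-49).

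The age difference held in each sex and in the second set of day 14 pups. The same 8 members were higher and the same 2 lower at PND14 among males and among females by label. Saline 3-Tri pups, also day 14, differed from the same PND1 saline pups with a log2FC of 1.76 for Acan, 0.99 for Bcan, 0.22 for Ncan, -1.83 for Vcan, 4.66 for Hapln1, 1.88 for Hapln2, 3.04 for Hapln4, 2.00 for Tnr, -2.73 for Tnc and 2.07 for Ust. Again 8 were called higher and 2 lower, where 42.1% of all genes were called higher and 43.0% lower; both comparisons use the same PND1 libraries. Saline 3-Tri and saline PND14 pups differed in 0 genes by edgeR (723 at an unadjusted p under 0.05, and 3 by DESeq2). The members' log2FC there ran from -0.06 to 0.24, and Acan, at 0.24 (SE 0.096, unadjusted p = 0.0167), did not pass (edgeR adjusted p = 1).

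**Figure D2:**
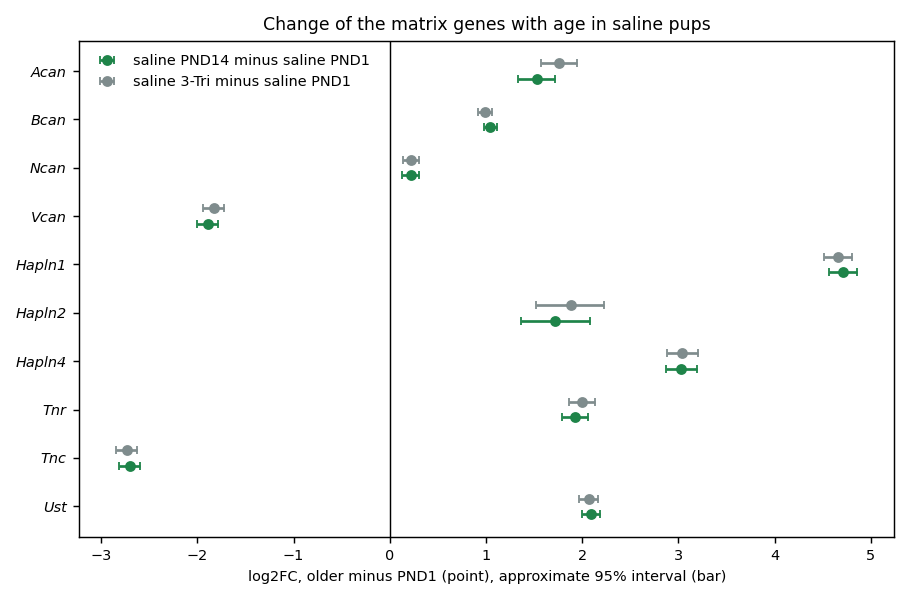
Log2FC of the 10 genes between saline pups (points; bars are approximate 95% intervals), PND14 minus PND1 in green and 3-Tri minus PND1 in grey. Vcan and Tnc lie left of 0 and the other 8 right of it in both comparisons, with Hapln1 farthest right at 4.71 and 4.66.

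Genes of several cell types differed between the ages too. The summed CPM of 7 myelinating oligodendrocyte genes was 4240 to 6120 in PND14 saline pups, against 195 to 274 in PND1 saline pups, that of 8 astrocyte genes 4300 to 5500, against 634 to 908, and that of 8 parvalbumin interneuron genes 952 to 1070, against 524 to 593. The sum of 6 oligodendrocyte precursor genes was 613 to 678 in PND14 saline pups, against 232 to 295 in PND1 saline pups. That of 7 progenitor and dividing cell genes was lower at PND14. It was 136 to 173 in PND14 saline females, against 308 to 370 at PND1, and 115 to 150 in saline males, against 304 to 465. The part of these lists in the members' differences was not tested.

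Genes that build, trim or bind the same matrix also changed in both directions, in a comparison where 41.7% of all genes were called higher and 43.2% lower. Of 12 genes of chondroitin sulfate chain synthesis, 8 were higher and 3 lower at PND14 (median log2FC 0.34, against -0.02 over all genes). Csgalnact1, which starts the chondroitin repeat, had 25.9 CPM on average at PND14 and 10.1 CPM at PND1, and Xylt1, which adds the first xylose of the linker, 98.4 and 44.8 CPM (log2FC 1.14), while the polymerase gene Chsy1 was lower (-0.77). Of 11 tested sulfation and epimerization genes, 8 were higher and 3 lower (median 0.23). The 4-O-sulfotransferase genes Chst11 (0.94) and Chst12 (0.78) and Papss2 (1.5), which makes the sulfate donor, were among the higher.

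Of 10 hyaluronan genes 2 were higher and 6 lower (median log2FC -0.35). Cemip, a hyaluronan-degrading protein, averaged 79.0 CPM at PND14 and 15.0 CPM at PND1 (2.39), whereas the synthase Has3 averaged 13.7 and 31.9 CPM (-1.21) and the hyaluronidase Hyal2 was also lower (-1.09). Of 14 tested lectican proteases and inhibitors, 7 were higher and 6 lower (median 0.11). Adamts4, an aggrecanase that also cuts brevican, averaged 45.1 ± 3.66 CPM at PND14 and 6.93 ± 0.903 CPM at PND1 (2.70; SD, n = 12 and 14), and the inhibitors Timp4 (1.85) and Timp2 (0.73) were higher too.

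Receptors and net-binding proteins had the highest median of the 6 lists, 1.14, with 10 of 16 higher and 5 lower. Nptx1, a secreted pentraxin that gathers AMPA receptors, averaged 183 CPM at PND14 and 26.9 CPM at PND1 (log2FC 2.77), and its membrane partner Nptxr (1.54) and the tenascin-R ligand Cntn1 (1.35) were higher. Of 13 other matrix and link genes 5 were higher and 3 lower (median 0.03), among them Sparcl1, hevin of astrocytes, with 1310 ± 69.6 CPM at PND14 and 364 ± 53.0 CPM at PND1 (1.85), while Smoc1 was lower (-1.13).

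Morphine before birth went with more Tnr and Ust RNA at PND1. With the sexes averaged, Tnr and Ust were called higher in morphine pups and no member lower, where edgeR called 7.39% of all genes higher and 9.43% lower. The members' median log2FC was 0.06, against 0.01 for all genes. Tnr had 56.6, 77.2 and 79.5 CPM as lowest, median and highest of 10 morphine pups, against 39.0, 62.3 and 77.0 CPM in 14 saline pups. The ranges overlapped, but 7 of 10 morphine libraries lay above every saline library and 9 of 10 above the saline median. The log2FC was 0.28 (SE 0.0742, edgeR adjusted p = 0.0125), with 75 ± 6.73 CPM in morphine and 62.0 ± 8.97 CPM in saline pups (SD).

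Tnr kept this call without any single one of the 24 libraries, and without those whose sex transcripts went against the label (log2FC 0.30, edgeR adjusted p = 0.0105). Ust had 13.7, 16.4 and 20.9 CPM in morphine pups, against 11.4, 14.3 and 17.3 CPM in saline pups, with 3 of 10 morphine libraries above all saline libraries and 9 of 10 above the saline median. Its log2FC of 0.19 (SE 0.0659) lay at the threshold (edgeR adjusted p = 0.048). It lost the call (adjusted p of 0.0509 to 0.109) in 17 of 24 fits that each left out 1 library: replicates 2, 3 and 4 of the female and 7, 8, 9 and 10 of the male morphine pups, and replicates 1, 2, 3, 4, 5 and 6 of the female and 9, 10, 11 and 14 of the male saline pups. Without the libraries that went against the label it was 0.17 (edgeR adjusted p = 0.0886).

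Hapln1 and Vcan leaned the same way without passing. Hapln1 had 2.49, 3.58 and 5.31 CPM in PND1 morphine pups, against 1.95, 2.95 and 3.86 CPM in saline pups (log2FC 0.31, SE 0.131, edgeR adjusted p = 0.109). Vcan had 162, 207 and 249 CPM, against 161, 191 and 220 CPM (0.13, SE 0.0538, adjusted p = 0.0975). Both overlapped widely, with 9 of 10 morphine libraries above the saline median in each. Without male morphine replicate 5, Vcan passed (0.16, edgeR adjusted p = 0.00938), as did Tnc (0.09, adjusted p = 0.0495), which stood at 0.08 with it (adjusted p = 0.162); Vcan also passed without the libraries that went against the label (0.14, adjusted p = 0.046). The log2FC of the other 5 members ran from -0.03 to 0.05.

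In males at PND1, Ust alone was called higher, and edgeR called 6.31% of all genes higher and 8.08% lower. Ust had 14.8, 17.3 and 20.9 CPM in 6 morphine males, against 11.4, 14.3 and 16 CPM in 7 saline males. Of the morphine males 4 of 6 lay above every saline male, and the log2FC was 0.29 (SE 0.0875, edgeR adjusted p = 0.0253). It was not called without male morphine replicate 8 (adjusted p = 0.054) or 9 (0.102), or male saline replicate 10 (0.0668) or 11 (0.0526). Hapln1 stood at 0.50 (SE 0.172, edgeR adjusted p = 0.0507) with 6 of 6 morphine males above the saline median, and it passed without male morphine replicate 5, male saline replicate 9 or 14, or any of the female saline replicates 2, 3, 4, 5 and 6 (adjusted p of 0.0276 to 0.049). Tnr stood at 0.26 (edgeR adjusted p = 0.0763) and passed without male morphine replicate 5 (0.0133) or male saline replicate 8 (0.048) or 9 (0.0362), and Vcan without male morphine replicate 5 (0.0335). Without the libraries that went against the label Tnr was 0.32 and passed in males (edgeR adjusted p = 0.0338).

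Females at PND1, with 4 morphine libraries, had 0 genes called by edgeR (2547 at an unadjusted p under 0.05, and 139 by DESeq2). Tnr was 0.29 there (SE 0.111, unadjusted p = 0.0136, edgeR adjusted p = 0.296), with 4 of 4 morphine females above all 7 saline females, as for 0.931% of all genes. The difference of the morphine effect between the sexes called 0 genes at PND1 (1187 at an unadjusted p under 0.05, and 0 by DESeq2), and that of the members ran from -0.12 to 0.39 (male minus female), so the sexes were not shown to differ.

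Base composition and some astrocyte and cartilage genes moved with the PND1 contrast. Genes with at most 43.6% GC in their exons had a median log2FC of 0.09 and those with at least 55.4% one of -0.10, the lower and upper ends of 5 equal classes. Hapln1 (39.8%) lies in the lowest class, Vcan (43.7%) at its edge, Tnr (47.7%) and Ust (50.1%) between, and Bcan (60.7%), Hapln2 (57.4%) and Hapln4 (57.0%) in the highest. After a correction for GC content and length Tnr remained called (0.22, edgeR adjusted p = 0.0241, range over 7 alternatives 0.00426 to 0.0878), Ust was 0.19 (0.0701, range 0.0125 to 0.0886), and Vcan 0.04 (0.517). The PND1 values of Hapln1 given above are without this correction. The summed CPM of 19 hindbrain and spinal cord genes was 0.84 to 118 in PND1 morphine pups (median 23.5), against 0.0397 to 62.4 in saline pups (median 9.42), and 0 of 15 tested genes were called by edgeR (0 at an unadjusted p under 0.05). In this contrast 7.39% of all genes were called higher and 9.43% lower. The summed CPM of 8 astrocyte genes was 742 to 1100 in morphine pups, against 634 to 908 in saline pups, with 2 called higher. That of 9 cartilage genes was 73.3 to 100, against 90.2 to 126, with 2 of 7 tested called lower. The part of these in the members' values was not tested.

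Injected morphine after birth went with less Hapln1 and Ust RNA at PND14. With the sexes averaged both were called lower and no member higher, where edgeR called 1.06% of all genes lower and 0.626% higher. The members' median log2FC was -0.05, against 0.01 for all genes. Hapln1 had 62.3, 67.6 and 74.4 CPM in 12 morphine pups, against 70.7, 74.6 and 95.7 CPM in 12 saline pups. The ranges overlapped, with 9 of 12 morphine libraries below every saline library and 12 of 12 below the saline median. The log2FC was -0.17 (SE 0.0443, edgeR adjusted p = 0.0386), with means of 67.6 ± 4.11 CPM in morphine and 76.8 ± 7.46 CPM in saline pups (SD).

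Ust had 46.3, 56.0 and 65.7 CPM in PND14 morphine pups, against 57.8, 60.1 and 65.6 CPM in saline pups. Of 12 morphine libraries 10 lay below every saline library, 1 above every one, and the log2FC was -0.13 (SE 0.0338, edgeR adjusted p = 0.0386). Tnr had 148, 213 and 241 CPM, against 164, 243 and 264 CPM, with 12 of 12 morphine libraries below the saline median, and its log2FC of -0.18 (SE 0.0678) did not pass (edgeR adjusted p = 0.169) except without female saline replicate 12 (-0.22, adjusted p = 0.0458). The log2FC of the other 7 members ran from -0.09 to 0.14.

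Both PND14 calls stood close to the threshold. Hapln1 lost its call (edgeR adjusted p of 0.0507 to 0.0818) without any one of replicates 2, 3, 7 and 9 of the male and 4, 5, 10 and 11 of the female morphine pups, or 3, 7, 8 and 9 of the male and 4 and 11 of the female saline pups. Ust lost its call (0.0528 to 0.075) without any one of replicates 2, 3 and 9 of the male and 5, 10 and 11 of the female morphine pups, or 3, 7, 8 and 9 of the male and 4, 5, 6, 10 and 11 of the female saline pups. Without female morphine replicate 4, the library the authors left out, Hapln1 was at 0.0606 and Ust at 0.0193 (log2FC -0.17 and -0.15), within ranges over 9 alternatives of 0.00862 to 0.0619 for Hapln1 and 0.00382 to 0.104 for Ust.

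The windows before Ust and Tnr, the members called higher at PND1, hold no annotated exon and are shown in the same way (chr10:8518826-8519075, minus strand, and chr1:159523519-159523768, plus strand). The Ust window is 66.4% GC with 15 CpG sites and 1 GGGCGG, on the reverse strand and in capitals, and the Tnr window is 46.8% GC with 2 CpG sites and holds none of the 3 motifs, where the median of all windows is 52.4% GC and 6 CpG sites.
Ust: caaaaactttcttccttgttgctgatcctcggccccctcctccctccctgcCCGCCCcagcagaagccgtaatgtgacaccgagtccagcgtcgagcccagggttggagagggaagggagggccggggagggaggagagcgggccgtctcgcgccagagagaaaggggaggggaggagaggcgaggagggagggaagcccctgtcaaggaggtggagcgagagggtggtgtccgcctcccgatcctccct
Tnr: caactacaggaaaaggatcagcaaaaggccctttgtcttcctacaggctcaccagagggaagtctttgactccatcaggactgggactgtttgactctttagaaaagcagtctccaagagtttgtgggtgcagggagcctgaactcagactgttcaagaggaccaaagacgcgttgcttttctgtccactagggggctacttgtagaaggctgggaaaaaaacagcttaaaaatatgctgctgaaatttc

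In males at PND14, Ust was the 1 member called, where edgeR called 0.199% of genes lower and 0.0815% higher. It had 46.3, 54.8 and 57.1 CPM in 6 morphine males, against 59.2, 64.0 and 65.6 CPM in 6 saline males, all 6 below as for 0.749% of all genes (log2FC -0.22, SE 0.0473, edgeR adjusted p = 0.0366). The call was lost (adjusted p of 0.0581 to 0.12) without male morphine replicate 2, 3 or 9 or male saline replicate 3, 7, 8 or 9. Hapln4 had 16, 20.9 and 24.3 CPM in morphine males, against 23.7, 24.7 and 27.5 CPM in saline males, with 5 of 6 below all saline males (-0.29, SE 0.105, unadjusted p = 0.0116), and did not pass (edgeR adjusted p = 0.342). Bcan had 319 to 337 CPM in morphine males, against 342 to 365 CPM in saline males, likewise all 6 below, and did not pass (-0.09, SE 0.0425, edgeR adjusted p = 0.506).

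Females at PND14 had 0 genes called by edgeR (2054 at an unadjusted p under 0.05, and 28 by DESeq2), and Hapln1 was -0.20 (SE 0.0631, unadjusted p = 0.00348, adjusted p = 0.328) and Ust -0.04 (SE 0.0483). The male minus female difference of the morphine effect was -0.38 for Hapln4 (unadjusted p = 0.0169) and -0.18 for Ust (unadjusted p = 0.0117), each with an edgeR adjusted p of 1. No gene passed that test (0, with 676 at an unadjusted p under 0.05, and 0 by DESeq2).

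The number that opens the sample ID, whose meaning the labels do not give, separates the drugs: 4422 and 4423 hold the PND14 morphine pups and 4424 and 4425 the saline pups, 6 each. Hapln1 averaged 66.8 ± 5.15 and 68.3 ± 3.07 CPM (SD) under the 2 morphine numbers, against 78.1 ± 9.95 and 75.5 ± 4.43 CPM under the 2 saline numbers. Ust averaged 55.3 ± 6.25 and 55.9 ± 2.40 CPM, against 60.8 ± 2.81 and 61.4 ± 3.36 CPM, and Tnr 210 ± 28.0 and 205 ± 32.8 CPM, against 249 ± 9.30 and 223 ± 33.1 CPM. In all 3 genes both morphine means lay below both saline means. Leaving out any 1 of the 4 numbers ended the calls with the sexes averaged (edgeR adjusted p of 0.122 to 0.269 for Hapln1 and 0.0739 to 0.384 for Ust) and that of Ust in males (0.103 to 1), in fits with 18 of 24 libraries. The log2FC in those fits was -0.20 to -0.16 for Hapln1 and -0.15 to -0.12 for Ust with the sexes averaged, and -0.29 to -0.17 for Ust in males. The correlation of libraries that share a number, estimated over all genes, was -0.0225, and in limma with the number as a random effect Hapln1 was -0.17 (adjusted p = 0.0191) and Ust -0.14 (adjusted p = 0.0153). This correlation is shared by all genes and need not be that of Hapln1 or Ust. With 2 numbers per drug, each within 1 drug, the limma fit cannot tell number and drug apart.

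**Figure D3:**
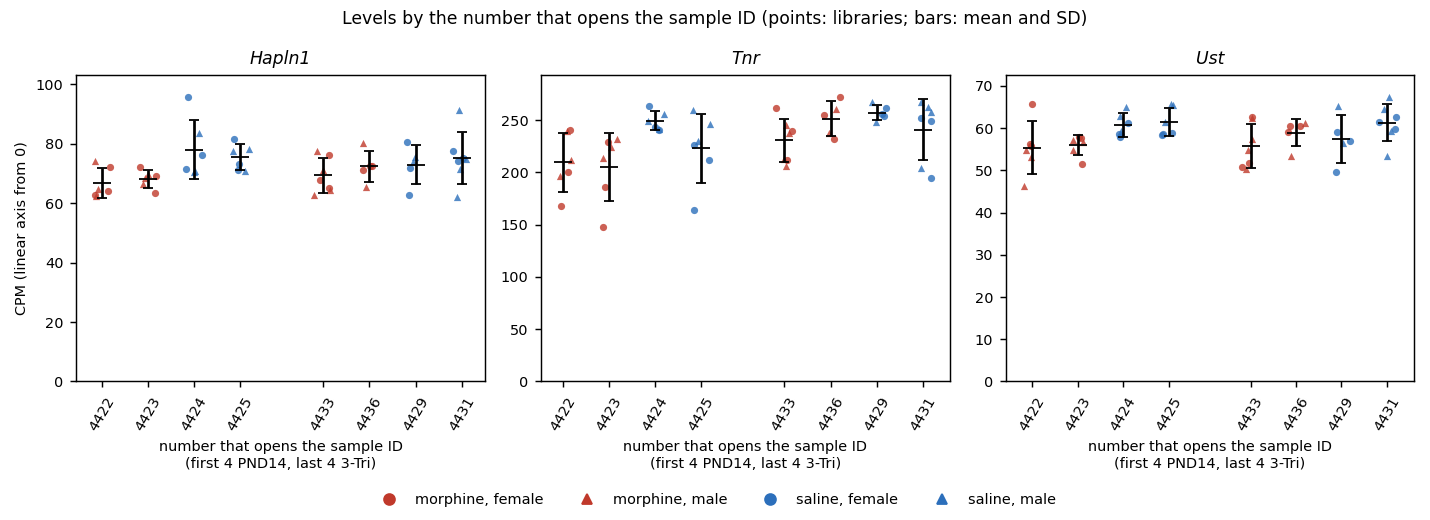
CPM of Hapln1, Tnr and Ust (linear axes from 0) by the number that opens the sample ID, PND14 in the first 4 columns and 3-Tri in the last 4, morphine (red) left of saline (blue), with the mean and SD in black. At PND14 the Hapln1 means are 66.8 and 68.3 CPM under the morphine numbers and 78.1 and 75.5 CPM under the saline numbers.

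Other cell type genes moved with the PND14 contrast too, where 1.06% of all genes were called lower. The summed CPM of 7 myelinating oligodendrocyte genes was 2770 to 5220 in morphine pups, against 4240 to 6120 in saline pups, with 4 of 7 called lower. That of 8 parvalbumin interneuron genes was 883 to 1010, against 952 to 1070, with 1 called lower, and that of 8 astrocyte genes 3860 to 4740, against 4300 to 5500. Their part in the lower Hapln1 and Ust was not tested.

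Exposure over both periods left no member past the threshold in the fits made here. The paper names Ust among the genes called in males of all its exposure windows, at an adjusted p under 0.05 by DESeq2. Its tables left out 3-Tri male saline replicate 1, which was kept here. Without that library edgeR also called 0 genes in males. DESeq2 was not run without it, so the paper's own fit was not repeated here. Ust had 50.3, 56.2 and 62.4 CPM as lowest, median and highest in 3-Tri morphine males, against 53.5, 61.9 and 67.3 CPM in saline males. Its log2FC in males ran from -0.15 to -0.1 in fits that each left out 1 library. In 3-Tri pups edgeR called 0 genes with the sexes averaged (963 at an unadjusted p under 0.05, and 0 by DESeq2), 0 in males (982, and 0) and 0 in females (476, and 0). The members' log2FC with the sexes averaged ran from -0.08 to 0.03, with Hapln1 at -0.06 (approximate 95% interval -0.16 to 0.04), Tnr at -0.05 (-0.15 to 0.05) and Ust at -0.08 (-0.16 to 0.01). Ncan, at -0.08, had the lowest unadjusted p (0.0431, edgeR adjusted p = 0.97). Hapln1 had 62.9, 71.2 and 80.2 CPM in morphine pups, against 62.0, 74.7 and 91.4 CPM in saline pups, so that the morphine range lay inside the saline range.

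**Figure D4:**
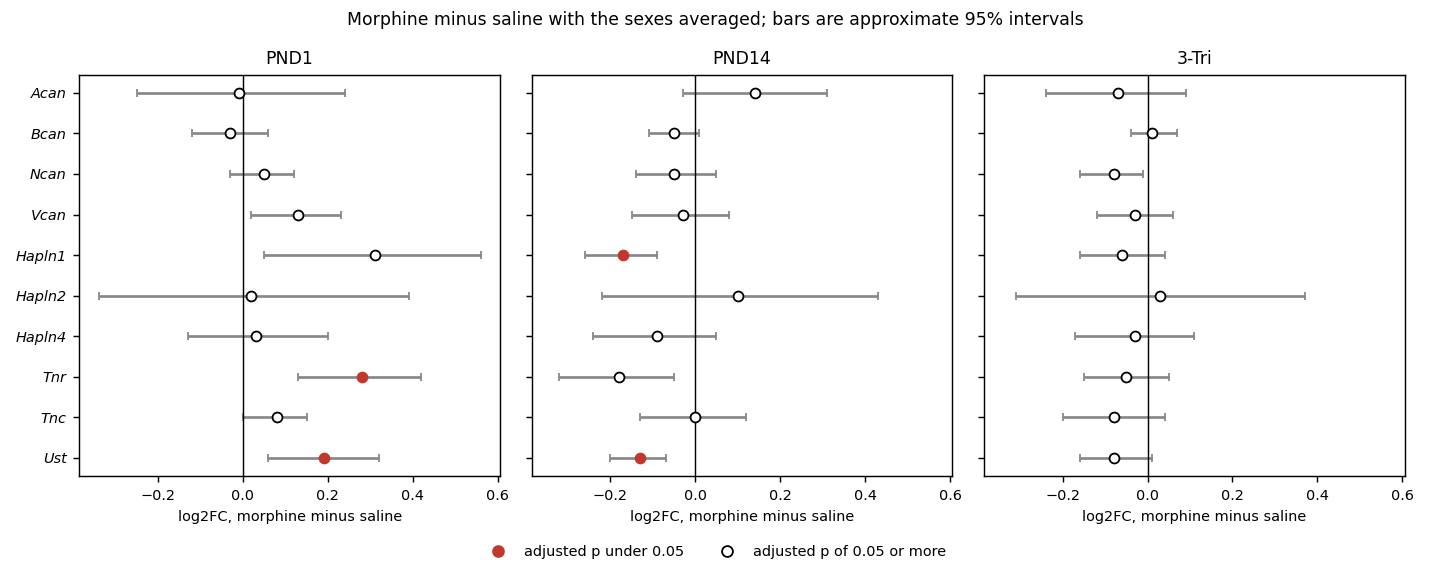
Log2FC of the 10 genes for morphine minus saline with the sexes averaged, by window (points; bars are approximate 95% intervals; red marks an adjusted p under 0.05). Tnr (0.28) and Ust (0.19) lie right of 0 in red at PND1, Hapln1 (-0.17) and Ust (-0.13) left of 0 in red at PND14, and no gene is red in 3-Tri.

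Ust, Tnr and Hapln1 thus had log2FC values of opposite sign at PND1 and PND14, where only Ust was called in both. Opposite signs were not particular to them: with the sexes averaged 8 of 10 members were positive at PND1 and 8 of 10 negative at PND14. The difference between the windows was tested directly. The morphine effect at PND14 minus that at PND1 was -0.46 for Tnr (SE 0.0995, edgeR adjusted p = 0.00104), -0.33 for Ust (SE 0.0724, adjusted p = 0.00139) and -0.48 for Hapln1 (SE 0.121, adjusted p = 0.00459). These 3 of 10 members were called lower and none higher, where 6.07% of all genes were called lower and 7.25% higher. The 3 calls held in 6 of 6 alternatives and in 48 of 48 fits that each left out 1 library, a check chosen after seeing the data. After the GC and length correction they were -0.36 for Tnr (edgeR adjusted p = 0.00273, range over the alternatives 0.000169 to 0.00273), -0.33 for Ust (0.00182, range 0.000158 to 0.00328) and -0.37 for Hapln1 (0.0316, range 0.00026 to 0.0316). None of the fits of a difference between windows left out, summed over or modelled the number that opens the sample ID. PND1 libraries carry no such number.

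The same 3 genes were called lower in the effect at 3-Tri minus that at PND1, which uses the same PND1 libraries. The differences were -0.32 for Tnr (SE 0.0993, edgeR adjusted p = 0.0288), -0.26 for Ust (SE 0.0719, 0.0136) and -0.37 for Hapln1 (SE 0.121, 0.0439), with 3.85% of all genes called lower and 4.58% higher. Without the libraries that went against the label none of the 3 passed (Tnr -0.36, edgeR adjusted p = 0.239; Ust -0.30, 0.104; Hapln1 -0.38, 0.25), at the upper end of ranges over 6 alternatives that began at 0.0158 for Tnr, 0.00448 for Ust and 0.0102 for Hapln1. Tnr and Ust each kept their call in 5 of the 6 and Hapln1 in 2. Hapln1 was also lost (0.0501 to 0.0934) in 24 of 48 fits that each left out 1 library. In PND1 these were replicates 2, 3 and 4 of the female and 8 and 9 of the male morphine pups, and 2, 3 and 4 of the female and 8, 10, 11 and 13 of the male saline pups. In 3-Tri they were replicates 5 and 6 of the female and 1, 2 and 9 of the male morphine pups, and 6, 7 and 10 of the female and 1, 2, 8 and 9 of the male saline pups. Between 3-Tri and PND14, edgeR called 0.0454% of all genes higher and 0.136% lower and no member. There 0 of 10 members had an unadjusted p under 0.05, with differences from -0.21 to 0.14 and a lowest adjusted p of 0.663.

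Of the wider matrix lists, chain synthesis genes held most of the calls at PND1. There 4 of 12 were higher in morphine pups and 1 lower with the sexes averaged (median log2FC -0.04). Of all genes 7.39% were called higher and 9.43% lower. The values given here are without the correction for GC content and length. Chsy3, a chondroitin polymerase, averaged 19.8 ± 3.89 CPM in morphine and 15.3 ± 1.45 CPM in saline pups (0.38, edgeR adjusted p = 0.00258), and Xylt1 (0.19, 0.00807) and Csgalnact1 (0.18, 0.038) were also higher, while B3gat3, which completes the linker, was lower (-0.16, 0.0145). Hyal2 was lower (-0.27, 0.000827), the hyaluronan receptor gene Cd44 higher (0.24, 0.0247), the protease gene Adamts15 lower (-0.20, 0.00554), and Ptprz1, phosphacan, which binds tenascins, higher (0.19, 0.00357). In the sulfation list edgeR called 0 of 11 (1 at an unadjusted p under 0.05) and in the receptor list 0 of 16 (7).

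At PND14 with the sexes averaged edgeR called 1.06% of all genes lower and 0.626% higher. In these lists Adamts4 was the 1 gene called, among 13 tested proteases and inhibitors (median log2FC -0.05). It averaged 35 ± 5.14 CPM in morphine pups and 45.1 ± 3.66 CPM in saline pups (-0.36, SE 0.0649, edgeR adjusted p = 0.00683; SD, n = 12 each). Oligodendrocytes express Adamts4, and the myelinating oligodendrocyte genes given above moved with it, whose part in it was not tested. The window difference PND14 minus PND1 was called for Hyal2 (0.43), Cd44 (-0.43), Chsy3 (-0.42) and Xylt1 (-0.30) among others.

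No member differed between the sexes by label past the threshold. With the drugs averaged, male minus female called 543 genes higher and 483 lower at PND1, 5 and 16 at PND14 and 0 in 3-Tri by edgeR (455 at an unadjusted p under 0.05, and 2 by DESeq2), and no member in any window. The lowest member p was that of Tnr at PND14 (0.15, unadjusted p = 0.032, edgeR adjusted p = 0.98).

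Profiles over the 12 groups were compared by the root mean square difference of centred log2 CPM, a description over points that share libraries and are split mostly by age. The genes nearest to each member were Cntnap1 and Cryab for Hapln4 (0.057 and 0.0889), Vip and Gm11549 for Hapln1 (0.0904 and 0.148) and Mir8104 and Ifit3b for Hapln2 (0.116 and 0.117). For the lecticans they were 1700034G24Rik and Nptx2 for Acan (0.0698 and 0.089), Grina and Rilpl1 for Bcan (0.0249 and 0.0251), Fry and Larp1 for Ncan (0.0188 and 0.019), and Ppip5k2 and Sncaip for Vcan (0.0527 and 0.0665). Stxbp5l and Unc80 lay nearest to Tnr (0.067 and 0.0724), Slc2a13 and Pcsk2 to Ust (0.0472 and 0.0488), and Gm2897 and 8030451A03Rik to Tnc (0.0675 and 0.0751), of which the last shares exon sequence with Tnc. No other member thus had a neighbour as close as those of Bcan and Ncan, and those of Hapln1 and Hapln2 were the farthest.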

How the data were processed

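The authors trimmed paired-end reads (Trim Galore 0.6.6), aligned them to mm10 (HISAT2 2.2.1), removed duplicates and counted them per gene (featureCounts 2.0.1), per the methods and the submitters' processing notes, and deposited the raw counts of 55401 genes in 72 libraries. Whether kit and counting kept strand was not given in the sources used here. The deposited comparison tables hold the authors' DESeq2 fold changes and p-values, which were not used. The submitters' processing notes give DESeq2 1.36.0, and the methods of the study an earlier version. From them came the gene symbols and the mean normalised signal, which matched the counts only without the libraries the authors left out.

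Counts were analysed in R 4.3.3 with edgeR 4.0.16 (TMM, filterByExpr with a minimum count of 10 and a total of 15, quasi-likelihood F test, Benjamini-Hochberg adjustment, threshold 0.05), which tested 21714, 19636 and 19730 genes in the PND1, PND14 and 3-Tri fits of 24 libraries with 4 groups each, and 22010 genes in 1 fit of all 72 libraries with 12 groups for ages and windows. Depth per library was 3113919 to 27333125 counts, and members with few reads had the widest errors. SEs are the size of the log2FC over the square root of F, and 95% intervals are approximate. CPM were scaled by TMM and divided by exon length (GENCODE M21) for levels between genes. The symbols fixed the members. Members, gene lists and tests were chosen with earlier results of these data known. Named besides the members were up to 3 genes per list with the smallest p in the age comparison, up to 4 called genes per list and morphine comparison, and the 2 genes nearest to each member in profile. Alternatives were DESeq2 1.42.0, its size factors in edgeR, no filter, a correction for GC content and length (lowess span 0.3), leaving out libraries, sums over the ID number within each sex, limma 3.58.1 with that number as a random effect, and the replicate number as a block. The scripts were tested on simulated counts. No replicate pair agreed within sampling noise (lowest chi-square per gene 1.58). Promoter windows came from RefSeq (GRCm38.p6), which matched 9 of 10 members, Hapln4 being the other.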

Additional observations from a re-analysis of the deposited data

Results flagged for a closer look

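In 8 of 120 groups of 4 to 7 libraries 1 library stood far from the rest of its group by Dixon's criterion, which chance alone meets in about 1 in 20 groups. Tnr had 56.6 CPM in PND1 male morphine replicate 5, below the next library at 77.2 CPM, 195 CPM in 3-Tri female saline replicate 5 (next 249 CPM) and 204 CPM in 3-Tri male saline replicate 3 (next 248 CPM). Ust had 46.3 CPM in PND14 male morphine replicate 3 (next 53.1 CPM) and 61.1 CPM in PND14 female saline replicate 6 (next 58.9 CPM). Vcan had 193 CPM in PND1 female morphine replicate 2 (next 207 CPM), Acan 8.33 CPM in 3-Tri female saline replicate 11 (next 6.48 CPM), and Tnc 32.3 CPM in 3-Tri female saline replicate 10 (next 25.2 CPM).

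The morphine effect differed between windows by its own test in 3 genes. At PND14 minus PND1 the log2FC differed by -0.48 for Hapln1, -0.46 for Tnr and -0.33 for Ust, and at 3-Tri minus PND1 by -0.37 for Hapln1, -0.32 for Tnr and -0.26 for Ust. Both comparisons use the PND1 libraries.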

How the results depend on the processing

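The age comparison kept its 8 higher and 2 lower members under 7 alternatives and in 26 fits that each left out 1 library, and the PND14 minus PND1 differences of Hapln1, Tnr and Ust under 6 alternatives and in 48 such fits (a check added after seeing the data). The number in the sample ID was not part of any of these alternatives. No member called in a comparison changed direction in any alternative or leave-one-out fit; some members not called did. The members called under morphine depended on the processing, and the cause was not tested. At PND1 in males 1 member was called, against 2 with DESeq2, 2 without the libraries against their sex label and 0 to 4 with 1 library left out. At PND1 with the sexes averaged 2 were called, against 1 without a filter, 1 after the GC and length correction and 1 to 4 with 1 library left out. At PND14 in males 1 was called, against 0 without a filter, 0 with counts summed over the ID number and 0 to 1 with 1 library or ID number left out. At PND14 with the sexes averaged 2 were called, against 1 without a filter, 1 without the library the authors left out, 1 with summed counts (each number still split by sex) and 0 to 3 with 1 library or number left out. The 3-Tri minus PND1 difference called 3, against 0 without the libraries against their label and 2 to 3 with 1 left out. Of these Hapln1 kept its call in 2 of 6 alternatives (edgeR adjusted p of 0.0102 to 0.25), and Tnr and Ust in 5 of 6 each.

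Counts of all genes called moved by over 1.5 times in these cases. PND1 males had 3124 (GC correction 1225) and PND1 with the sexes averaged 3653 (GC correction 1947). PND14 males had 55 (DESeq2 196, GC correction 85, limma 101, summed counts 24) and PND14 with the sexes averaged 332 (DESeq2 680, limma 644, summed counts 122). PND14 minus PND1 had 2931 (GC correction 1716), 3-Tri minus PND1 1855 (no filter 1124, GC correction 1022, without libraries against the label 50), and 3-Tri minus PND14 40 (DESeq2 74, no filter 25, without libraries against the label 0, without the authors' left-out libraries 2). Male minus female had 1026 at PND1 (DESeq2 1730, GC correction 30, no filter 578, without libraries against the label 1999) and 0 in 3-Tri (DESeq2 2, no filter 3, without libraries against the label 15). PND1 females had 0 (1 without a filter, 139 with DESeq2), PND14 females 0 (28 with DESeq2) and saline 3-Tri minus PND14 0 (3 with DESeq2).

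Replicate numbers did not pair the samples: the correlation of same-numbered libraries' deviations ran from -0.217 to 0.209. With the replicate number as a block, alone and with the GC and length correction, the members called were 2 and 0 in PND1 males, 4 and 1 at PND1 with the sexes averaged, 0 and 0 in PND14 males, and 0 and 1 at PND14 with the sexes averaged. The genes called were 1828 and 101 in PND1 males, 1502 with both at PND1 with the sexes averaged, 31 in PND14 males, 98 and 158 at PND14 with the sexes averaged, and 1 and 1 in PND1 females and in the PND1 sex difference of the morphine effect.

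Depth limits Acan and Hapln2, with as few as 17 and 7 reads in a library. At PND1 counts were also low for Hapln1 (48 to 134 reads) and Hapln4 (50 to 109 reads). Litters, and whether the number in the sample ID marks one, were not given, and windows differ in age, route and handling. Of 24 3-Tri libraries, 12 went against their sex label.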
